A study of Mus musculus with 405 samples.

Results

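Azole fungicides block sterol 14-alpha demethylase, the enzyme encoded in mammals by Cyp51, through an imidazole or triazole ring that binds the haem iron of cytochrome P450 enzymes. They were found by name in the screen of cultured mouse cortical neurons: every library was taken whose title held "conazole" or opened with flusilazole, imazalil, prochloraz, paclobutrazol, triadimefon, triadimenol or triflumizole. This gave 15 libraries of 14 compounds, of 393 libraries of 297 chemicals in the screen table and 405 samples in the whole series. Of the azoles, 13 compounds (14 libraries, prochloraz having 2) were given at 10 µM and cyproconazole (1 library) at 1 µM. The imidazoles were imazalil, prochloraz and triflumizole, and the triazoles at 10 µM were difenoconazole, diniconazole, flusilazole, hexaconazole, paclobutrazol, propiconazole, tetraconazole, triadimefon, triadimenol and triticonazole.

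The screen asked which environmental chemicals shift gene expression in neurons. All cultures, controls included, came from E15 embryos of C57BL/6J dams and CAST/EiJ males, were kept with a mitosis inhibitor from an early medium change, and were exposed on day 7 in vitro for 24 h at a dose that the labels call not cytotoxic. The paper of the authors gives a slightly earlier embryonic day for the dissection than E15. The azoles were compared with 49 vehicle libraries and with 242 other chemicals at 10 µM (254 libraries). Of the other chemicals given, myclobutanil (a triazole) and fenarimol (a pyrimidine) also inhibit sterol demethylase, were not picked by the name rule, are not among the 242, and are given beside the azoles as 1 library each. Neither pooling of animals nor the number of cultures behind a library is stated, so p-values measure the spread between libraries and compounds, which may be partly technical.

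Cholesterol in neurons is made from acetyl-CoA through mevalonate, squalene and lanosterol, and little of it enters the brain from the blood. When the sterol content of the endoplasmic reticulum drops, the transcription factor SREBP2 is released from its retention by the INSIG proteins and switches on nearly every gene of the pathway together with genes of sterol uptake. In yeast and fungi, blocking the same demethylase stops ergosterol synthesis, which is the basis of the use of these fungicides on crops and in medicine.

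Promoters are shown for Cyp51, the target of the azoles, for Idi1, the sterol gene called in the most single azoles, and for Tm7sf2, the sterol gene furthest above vehicle, because the pathway genes were higher together. RefSeq promoters (GRCm38.p6, 250 bases before to 50 after the gene start) were found for 15 of the 20 measured cholesterol synthesis genes. The motif CCAAT, searched on both strands, was present in 14 of these 15 (93.3%), against 43% of the 9942 screened genes that have a promoter in the table and 41.1% of all 27025 genes in it. The sequence TCACNCCAC, a form of the sterol regulatory element, was in 0 of the 15 and in 1.4% of the screened genes with a promoter. A match is only a match of letters. Of those shown, Cyp51 lies on the minus strand at chr5:4104648-4104947, Idi1 on the plus strand at chr13:8885356-8885655 and Tm7sf2 on the minus strand at chr19:6067801-6068100, and capitals mark CCAAT on either strand.
Cyp51: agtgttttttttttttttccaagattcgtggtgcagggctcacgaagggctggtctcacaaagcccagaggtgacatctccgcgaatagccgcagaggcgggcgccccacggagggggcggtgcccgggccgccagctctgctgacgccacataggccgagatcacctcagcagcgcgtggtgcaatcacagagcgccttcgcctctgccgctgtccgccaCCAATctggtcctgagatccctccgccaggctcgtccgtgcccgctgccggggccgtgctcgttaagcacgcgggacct
Idi1: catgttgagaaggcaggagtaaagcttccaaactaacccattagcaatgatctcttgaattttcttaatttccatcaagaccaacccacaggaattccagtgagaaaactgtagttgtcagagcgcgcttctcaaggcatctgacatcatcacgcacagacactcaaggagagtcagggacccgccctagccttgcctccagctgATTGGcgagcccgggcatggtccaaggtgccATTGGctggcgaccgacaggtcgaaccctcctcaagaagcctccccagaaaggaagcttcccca
Tm7sf2: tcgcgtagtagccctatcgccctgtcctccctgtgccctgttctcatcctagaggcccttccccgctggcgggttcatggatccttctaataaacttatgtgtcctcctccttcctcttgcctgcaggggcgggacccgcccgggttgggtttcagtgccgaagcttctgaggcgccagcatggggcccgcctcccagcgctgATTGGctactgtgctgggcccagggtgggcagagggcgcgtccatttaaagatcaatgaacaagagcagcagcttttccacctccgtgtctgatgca

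Vehicle cultures expressed the pathway well. In 4 vehicle libraries with deposited counts (2778615 to 7833440 reads on genes), Cyp51 (mm9 chr5:4081145-4104746, minus strand) stood at 100.1 ± 10.1 RPKM (SD, n = 4), and Idi1, the isopentenyl diphosphate isomerase, at 13.8 ± 1.46 RPKM. Among 8 neuron markers, levels ran from 18.9 RPKM (Rbfox3) to 1325 RPKM (Tubb3, n = 4), with a median of 86.2 RPKM. Mural, fibroblast and endothelial markers ran from Cldn5, an endothelial marker with 0 reads in all 4, to Tagln at 28.8 RPKM. Oligodendrocyte lineage markers reached 33.6 RPKM (Olig1), and the microglial markers were at most 7.21 RPKM. Astrocyte markers were present, Slc1a2 being the highest of 7 at 26.4 RPKM. By their column names, 1 of these libraries goes with the screen and 3 with a separate experiment. The names do not say which vehicle sample each is, and the totals fall into a lower pair (2778615 and 2893598) and a higher pair (7082405 and 7833440). Depth of the azole libraries is unknown, because the screen table holds only gene-centred log values.

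Cholesterol synthesis genes were higher in the azoles at 10 µM than in vehicle. Of 20 measured genes, 17 rose, 0 fell and all 20 were above 0, with a median difference of 0.37 on the log2 scale, beside -0.01 over all genes. Over the 13304 genes tested, 301 (2.26%) were called at an adjusted p below the threshold by limma, 1.15% higher and 1.11% lower. Cyp51 itself, the enzyme that azoles target, ranged from -0.14 through a median of 0.22 to 0.93 across the 13 azoles, and from -0.33 through -0.10 to 0.32 across the 49 vehicle libraries. The groups overlapped, but 5 azoles lay above every vehicle library. The difference was 0.38 ± 0.06 (SE, adjusted p = 0.000123, limma). The group fits use the same variance for both groups at each gene. The SD of Cyp51 was 0.29 in the azoles and 0.16 in vehicle, and that of Idi1 0.41 and 0.21. Where the smaller group spreads more, as here, such SEs and p-values come out too small.

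**Figure D1:**
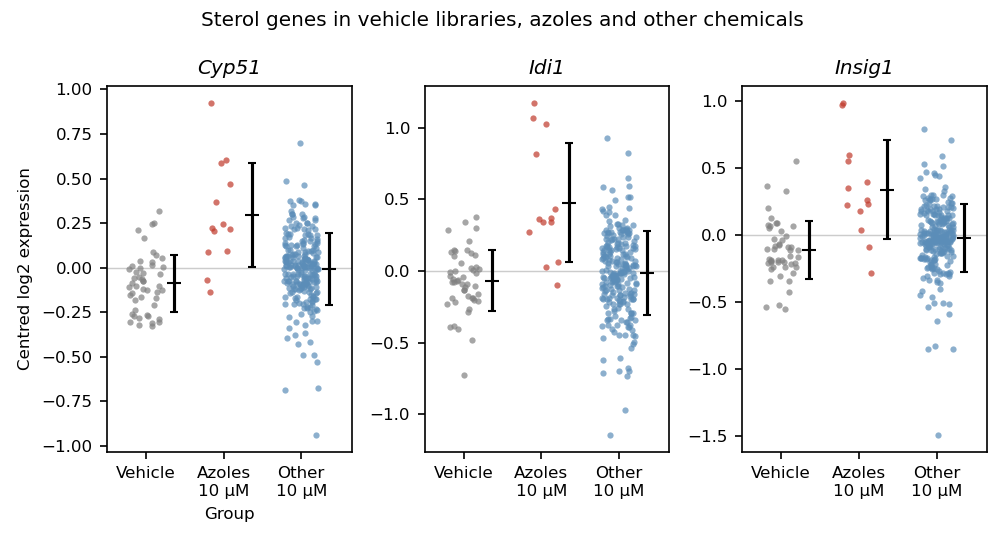
Centred log2 expression of Cyp51, Idi1 and Insig1 in 49 vehicle libraries, 13 azoles and 242 other chemicals at 10 µM; points are libraries or compounds and bars are the mean ± SD. Of the 13 azoles, 5 lie above all vehicle libraries for Cyp51 and for Idi1, while the remaining azoles overlap with the vehicle libraries.

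Genes of both early and late steps rose. Idi1 spanned -0.10 to 1.18 in the azoles (median 0.37) and -0.72 to 0.38 in vehicle (median -0.07), and 5 azoles exceeded all vehicle libraries; its difference of 0.54 ± 0.08 had an adjusted p of 4.91e-05. Fdps, the farnesyl diphosphate synthase, rose by 0.43. After lanosterol, which Lss makes (0.54), the demethylation step of Cyp51 is followed by Tm7sf2 (0.62), Sc4mol, now named Msmo1 (0.39), Nsdhl (0.32) and Hsd17b7 (0.50), the reductases and demethylases that clear the product. For Hsd17b7, 7 azoles lay above the highest vehicle library. Acat2, Mvk, Pmvk, Fdft1, Sqle, Sc5d and Dhcr7 also rose, by 0.23 (Sqle) to 0.47 (Pmvk). The genes that did not pass were Mvd (0.44, adjusted p = 0.0517), Ebp (0.32, adjusted p = 0.219) and Lbr (0.20, adjusted p = 0.324). Hmgcs1 was not analysed here.

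Fewer of the uptake and regulation genes passed. Of 10 measured, 4 rose. Among them were Stard4, a cholesterol carrier (0.60, adjusted p = 0.0074), and Insig1, the sterol-sensing retention protein (0.45, adjusted p = 0.000284), both by limma. Npc2, a lysosomal sterol carrier, rose too (0.20, adjusted p = 0.00701), but did not pass against the other chemicals (0.12, adjusted p = 0.458). For Npc2, the other chemicals also lay above vehicle (0.08, adjusted p = 0.0477, limma). Insig1 ran from -0.29 through 0.26 to 0.99 in the azoles and from -0.55 through -0.16 to 0.55 in vehicle, with 4 azoles above all vehicle libraries. Srebf2, which encodes SREBP2, was at 0.13 (adjusted p = 0.0683), Srebf1 at -0.08 and Insig2, the partner of Insig1, at -0.08. Fatty acid synthesis, under the related factor SREBP1, had 7 of 12 genes higher, 0 lower and a median of 0.21: Acss2, acetyl-CoA synthetase (0.61), Scd1 (0.43), Fasn (0.31) and the elongase Elovl5 (0.24) were among them.

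Against the 242 other chemicals at the same dose, the pattern was smaller. There, 31 genes (0.233%) were called, 26 higher (0.195%) and 5 lower (0.0376%), and 9 of the 20 cholesterol genes rose, with all 20 above 0 and a median of 0.28. Idi1 was first, at 0.49 ± 0.08 above the other chemicals (adjusted p = 0.000261); Cyp51 stood at 0.30 ± 0.06 (adjusted p = 0.00238) and Insig1 at 0.36 ± 0.07 (adjusted p = 0.00534). In all, 16 of the 31 belonged to the sterol or fatty acid lists. Of the others, 0610007P14Rik, a gene whose RefSeq symbol is Erg28 (0.41, adjusted p = 0.00507), and Cyb5b, which encodes a cytochrome b5 of the mitochondrial outer membrane (0.16, adjusted p = 0.000738), also rose; both were chosen after their values were seen. These calls rested largely on difenoconazole. Without it, 1 gene was called against the other chemicals (Idi1, 0.44, adjusted p = 0.0108), Cyp51 was at 0.25 (adjusted p = 0.189) and the cholesterol median was 0.24. Against vehicle, 160 genes and 11 cholesterol genes were called without difenoconazole, with a median of 0.31, and all 20 genes were above 0 in both comparisons. Without triticonazole 4 genes were called against the other chemicals, without propiconazole 7, without imazalil 10, without flusilazole 17 and without paclobutrazol 47.

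Single compounds ranged widely. The median of the 20 cholesterol genes was 1.03 for difenoconazole, the highest of 297 chemicals, 0.78 for triticonazole (rank 3), 0.67 for propiconazole (rank 5), 0.51 for flusilazole (rank 7), 0.39 for imazalil (rank 18), 0.37 for triadimenol (rank 23) and 0.29 for triadimefon (rank 39). Lower were paclobutrazol (0.25), tetraconazole (0.17), diniconazole (0.16), hexaconazole (0.11), prochloraz (0.09) and triflumizole (-0.08, rank 245). The 49 vehicle libraries ran from -0.40 to 0.50, and 4 azoles lay above them. Among the 242 other chemicals at 10 µM, 31 (12.8%) had a median above that of the middle azole. These were led by cyprodinil (0.80), endosulfan (0.69) and spiroxamine (0.56). Only inhibitors of the demethylase were kept out of the 242, which may hold inhibitors of other steps of sterol synthesis. Cyproconazole, at 1 µM, stood at 0.13, and myclobutanil and fenarimol at 0.17 and 0.16.

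**Figure D2:**
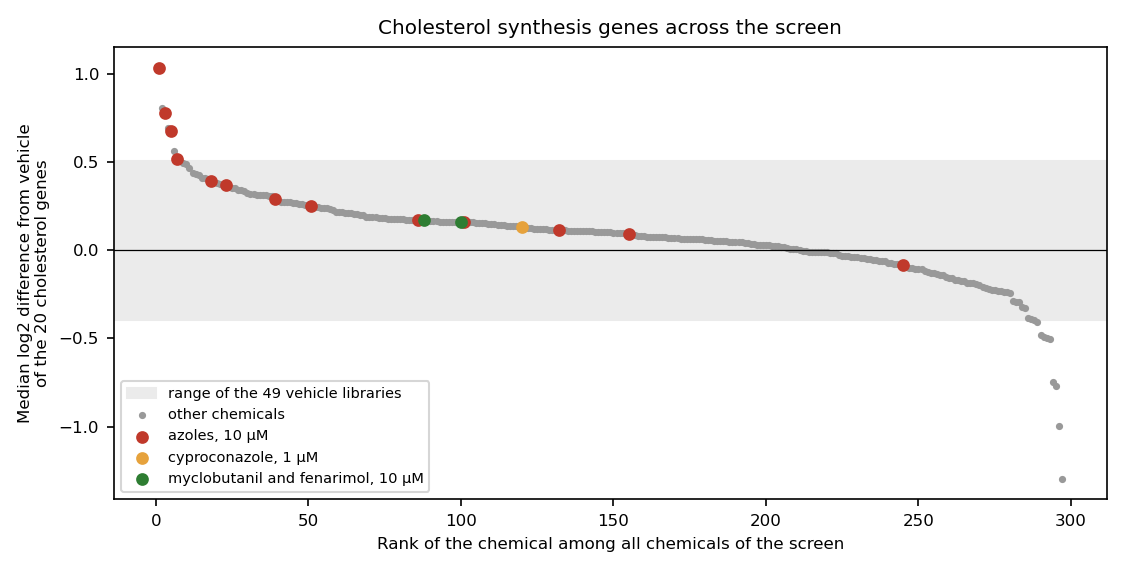
Median log2 difference from vehicle of the 20 cholesterol synthesis genes for each of 297 chemicals, ordered by rank; grey band, range of the 49 vehicle libraries. Azoles hold ranks 1, 3, 5 and 7, and triflumizole lies at rank 245.

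Each compound was fitted against vehicle with the spread taken from all replicated conditions of the screen. Most replicate libraries were of vehicle or of topotecan, the positive control of the screen. Single libraries are thus assumed to vary like the replicated ones. Under difenoconazole, 14 of the 20 cholesterol genes rose (beside 0.526% of all genes), under triticonazole 5 (0.0902%) and under propiconazole 1, Idi1 (0.015%), and under the other 10 azoles 0. Of the 242 other chemicals, 5 (2.07%) had any cholesterol gene called higher and 0 had 3 or more. Tm7sf2 under difenoconazole was 1.75 above vehicle, and Stard4 1.96. Under triticonazole Hsd17b7 was 1.35 ± 0.24 above vehicle (adjusted p = 0.000931). Under propiconazole Idi1 was 1.24 ± 0.25 above vehicle (adjusted p = 0.00657), the other cholesterol genes not passing. Idi1 was called in 3 compounds, and Cyp51 in 1, difenoconazole (1.01 ± 0.19, adjusted p = 0.000675); in triticonazole it was 0.68 (adjusted p = 0.134) and in propiconazole 0.69 (adjusted p = 0.22).

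**Figure D3:**
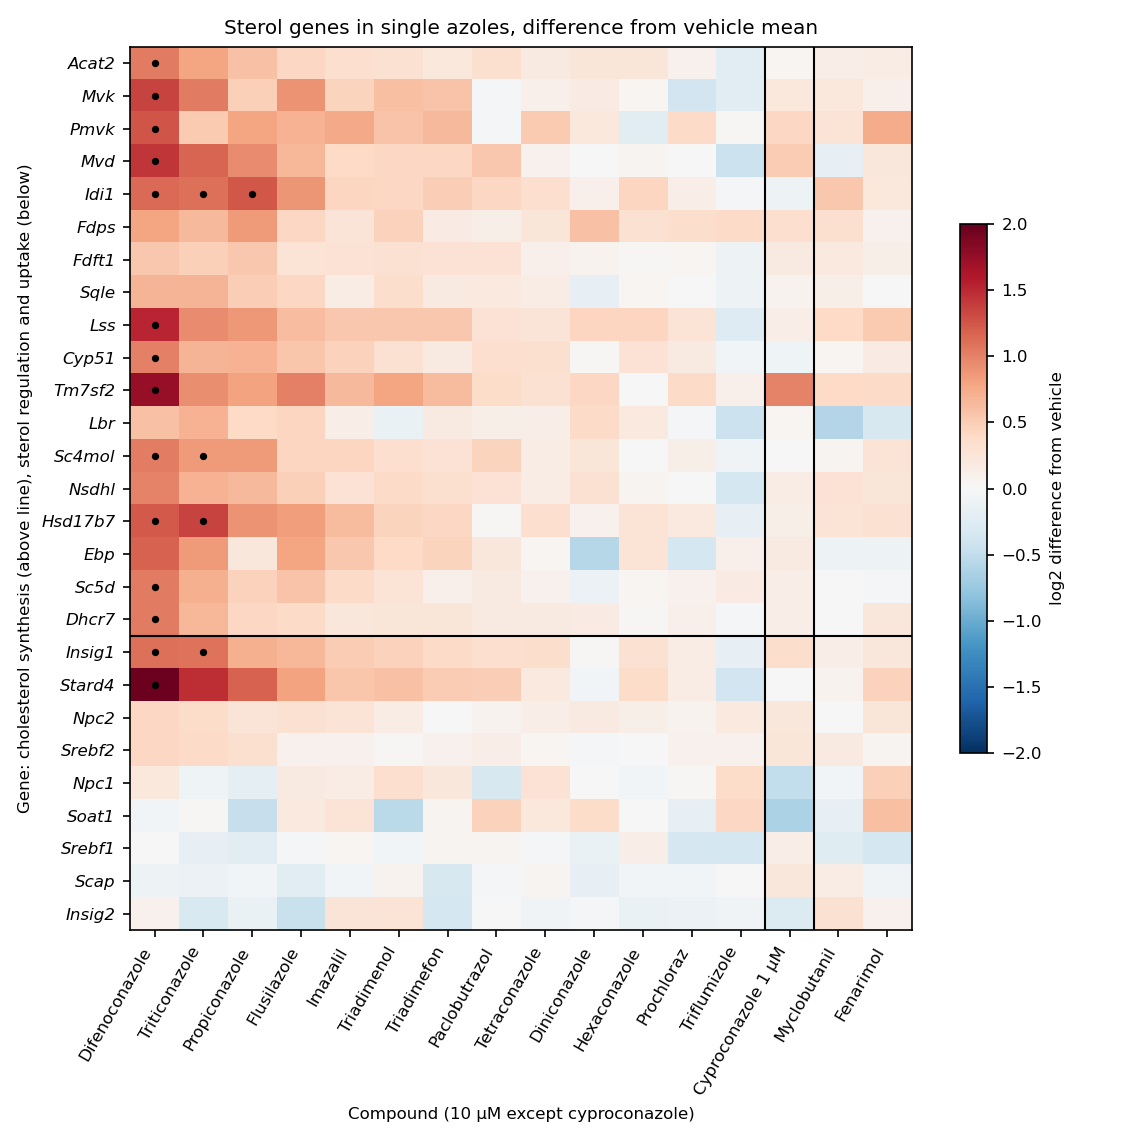
Log2 difference from the vehicle mean (colour) for 18 cholesterol synthesis genes and 9 sterol regulation and uptake genes in each azole, with cyproconazole at 1 µM, myclobutanil and fenarimol at the right; dots mark an adjusted p below 0.05. Dots are seen in difenoconazole, triticonazole and propiconazole and in no other column.

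Calls of any kind also differed between compounds. Difenoconazole had 141 called genes (1.06% of those tested; 0.526% higher and 0.534% lower) and triticonazole 29 (0.218%; 0.0902% and 0.128%). Propiconazole had 12 (0.0902%; 0.015% higher and 0.0752% lower), led upward by Myo5c, an unconventional myosin (2.85), and Idi1. Flusilazole had 30 (0.225%; 0.0225% higher and 0.203% lower), prochloraz, from 2 libraries, 52 (0.391%; 0.0451% and 0.346%) and triflumizole 27 (0.203%; 0.015% and 0.188%). In these compounds falls outnumbered rises. Prochloraz is the only azole with 2 libraries and so has a smaller error than the others; with the first library alone it had 7 called genes and with the second alone 33.

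The remaining azoles had few rises. Imazalil had 16 called genes (0.12%; 0.00752% higher and 0.113% lower), triadimefon 18 (0.135%) and tetraconazole 13 (0.0977%), with 0 higher in triadimefon and tetraconazole. Paclobutrazol had 4 (0.0301%; 0.00752% higher and 0.0225% lower), triadimenol 4 (0.0301%), hexaconazole 2 (0.015%) and diniconazole 1 (0.00752%, Nipal2, a magnesium transporter homologue, at -2.35). Cyproconazole at 1 µM had 16 (0.12%; 0.0225% higher and 0.0977% lower), myclobutanil 16 (0.12%) and fenarimol 2 (0.015%). The median was 16 over the 13 azoles and 11 over the 242 other chemicals, whose quartiles were 5 and 19. Over the 13 azoles, 349 combinations of gene and compound were called (0.202%; 0.0561% higher).

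Genes called lower in these single libraries, cyproconazole and both other inhibitors included, had a median of 12.95 CPM in the vehicle count libraries, those called higher 92.4 CPM, and all screened genes 25.2 CPM. The part of expression level in the falls was not tested. Both prochloraz libraries together had a Spearman correlation of 0.02 over 5121 variable genes, beside a median of 0.01 between other chemicals. Their Cyp51 differences from vehicle were 0.05 and 0.31, and their Idi1 differences 0.03 and 0.23.

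**Figure D4:**
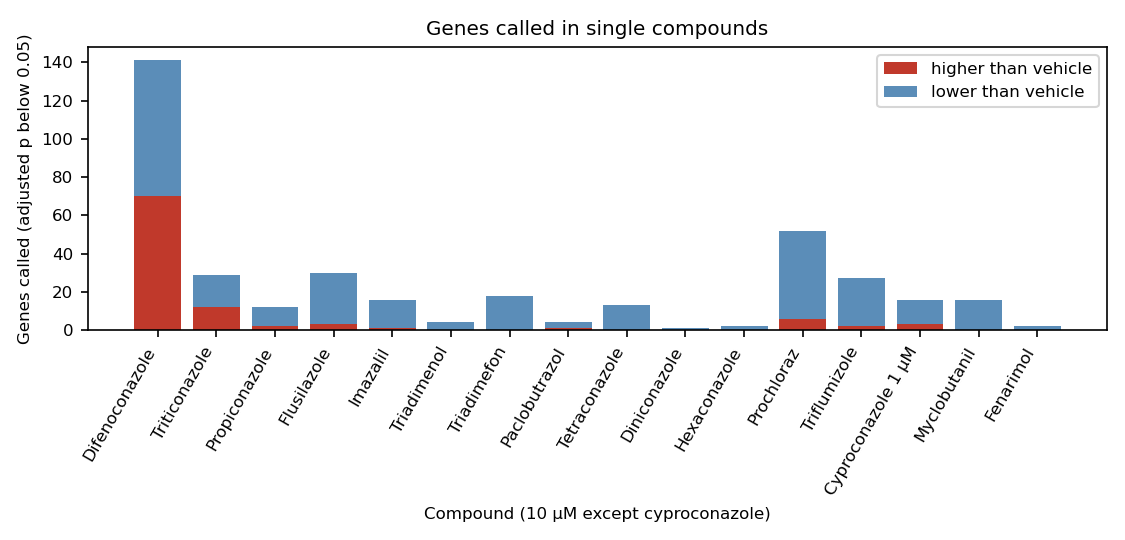
Number of genes called against vehicle in each compound (bars), split into higher and lower. Difenoconazole has 141 from 1 library, and prochloraz 52 from 2 libraries, or 7 and 33 from each alone.

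Outside the sterol genes, difenoconazole raised Atf4, the effector of the integrated stress response (0.79), and lowered Abcg1, a sterol efflux transporter (-0.94), and Rara, a retinoic acid receptor (-2.05). Triflumizole raised Srxn1 (sulfiredoxin, 1.01, adjusted p = 0.00227) and Txnrd1 (thioredoxin reductase, 0.74, adjusted p = 0.0213), both antioxidant genes of the NRF2 list, while its sterol genes did not pass. Prochloraz raised Hrk, a BH3-only cell death gene (0.79, adjusted p = 0.00396), and, chosen after their values were seen, Bcl2l11 of the same family (0.75) and Jun (0.63). It lowered Rara (-1.37), which was at -1.37 in each of its libraries, and Egr4, an immediate early factor (-2.14), which was at -0.74 in one library and -3.54 in the other. With the first prochloraz library alone none of these genes passed, and with the second alone Egr4 (adjusted p = 0.0052), Hrk (adjusted p = 0.0369) and Jun (adjusted p = 0.0449) passed in limma. Flusilazole lowered Egr3, an immediate early transcription factor (-2.44, adjusted p = 0.0126, limma). Imazalil raised Eps15, an endocytic adaptor (0.57), as did difenoconazole.

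Tuba4a, an alpha tubulin, and Dynll1, a dynein light chain, fell in 3 azoles each, and were chosen after their values were seen. Tuba4a was -1.12 in triflumizole, -0.76 in difenoconazole and -0.57 in prochloraz. Across all 13 azoles it ran from -1.02 through -0.42 to 0.31, against -0.42, 0.09 and 0.69 in vehicle, and 7 azoles lay below every vehicle library. It was lower than vehicle by 0.43 (adjusted p = 0.000284) and lower than the other chemicals by 0.31 (adjusted p = 0.0262). Without difenoconazole the latter difference was -0.28, with an adjusted p of 0.228. Tuba4a was also lower in the other chemicals than in vehicle (-0.12, adjusted p = 0.0406, limma). With either prochloraz library alone, neither Tuba4a nor Dynll1 passed for prochloraz.

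The falls against vehicle included Sv2b. This gene, which encodes a synaptic vesicle protein, had the smallest adjusted p of all genes: azoles ran from -0.57 through -0.31 to 0.09 and vehicle from -0.27 through 0.10 to 0.39, a difference of -0.38 ± 0.05 (adjusted p = 1.22e-05). All 13 azoles lay below the vehicle mean, and 8 lay below every vehicle library. Nptx1, a neuronal pentraxin (-0.45, adjusted p = 0.000284), Kcnn2, a calcium-activated potassium channel (-0.69, adjusted p = 0.000386), and Kcnq3, a voltage-gated one (-0.64, adjusted p = 0.00217), also fell. Sv2b and Nptx1 were named after their values were seen. None of these 4 passed against the other chemicals (Sv2b -0.23, adjusted p = 0.137; Kcnn2 -0.47, adjusted p = 0.105). Sv2b was itself lower in the other chemicals than in vehicle (-0.14, adjusted p = 0.00528, limma). So were Kcnq3 (-0.33, adjusted p = 0.013) and Kcnn2 (-0.22, adjusted p = 0.0471). Among genes tested in that comparison, added after seeing the data, 616 were called (4.63%, with 1.67% higher and 2.96% lower). Of the 148 genes lower in azoles than in vehicle, 4 (0.0301% of all genes) were also lower than in the other chemicals, and 26 of the rises (0.195%) were shared. Both comparisons use the same azole values.

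**Figure D5:**
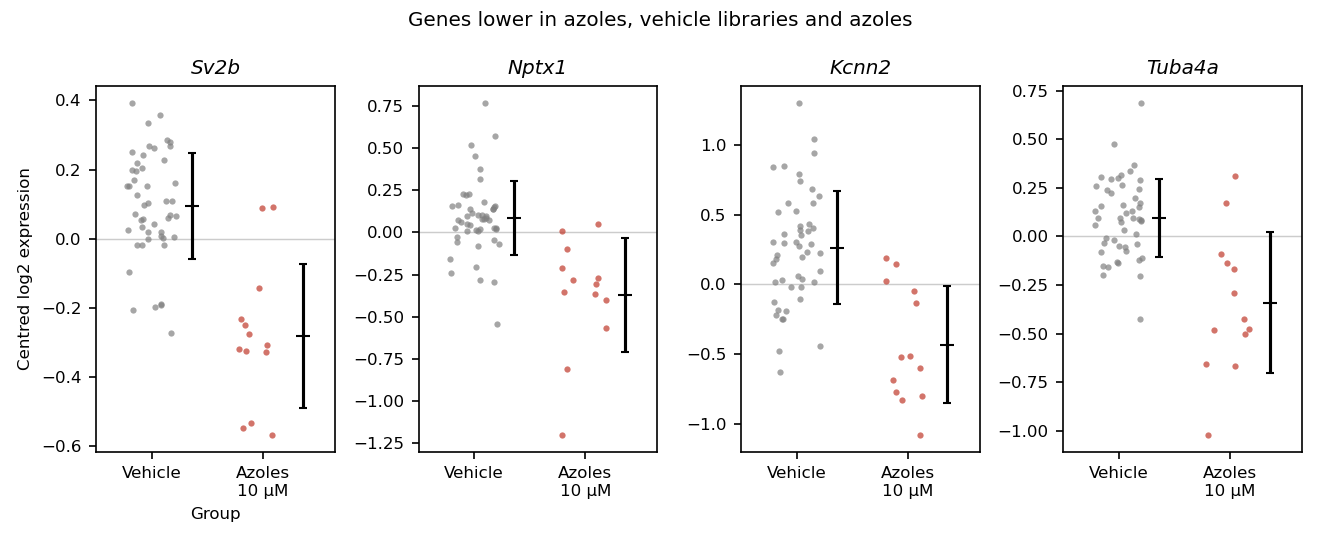
Centred log2 expression of Sv2b, Nptx1, Kcnn2 and Tuba4a in 49 vehicle libraries and 13 azoles; bars are the mean ± SD. The azole means lie below the vehicle means in each panel, with overlap.

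The largest rises against vehicle were Fam64a (0.93), Fam181a (0.85), Gcat (0.73), Slc24a4 (0.69) and Kif20b (0.64), a mitotic kinesin, followed by Tm7sf2, Wdr54, Acss2, Stard4 and Slc1a5. The largest falls were Relb (-0.84), Pcgf1 (-0.78), Kcnn2, Egr3 (-0.68) and Vipr1 (-0.68). Of these rises, Tm7sf2 and Stard4 also passed against the other chemicals. The other chemicals were themselves called above vehicle for Fam181a (0.36), Gcat (0.37), Slc24a4 (0.28), Tm7sf2 (0.21) and Acss2 (0.21). Fam64a, Kif20b, Wdr54, Stard4 and Slc1a5 did not pass there. Of 9 neuron markers, 2 were called lower than in vehicle, Rbfox3 (-0.26) and Slc17a7 (-0.24), and the list median was -0.08. Only 1 of the 9 was above 0, beside 47.8% of all genes, and Tubb3 did not pass (-0.16, adjusted p = 0.0599, limma). Neither Rbfox3 nor Slc17a7 passed against the other chemicals in limma (adjusted p = 0.628 and 0.275), where 4 of the 9 markers were above 0. Rbfox3 was itself lower in the other chemicals than in vehicle (-0.12, adjusted p = 0.0326), while Slc17a7 did not pass there (-0.07, adjusted p = 0.158). No marker of astrocytes, microglia, oligodendrocyte lineage or mural, fibroblast and endothelial cells was called for the azoles against vehicle. Their list medians over the 13 azoles lay between -0.06 and 0.03. In single compounds, Olig1, an oligodendrocyte lineage factor, was lower under difenoconazole (-1.26, adjusted p = 0.00289, limma), and no other marker of the lists was called; its part in the difenoconazole calls was not tested. In bulk RNA, fewer cells of a type and less RNA per cell cannot be told apart, and the part of the neuron markers in the results above was not tested.

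Immediate early genes had 0 of 20 higher and 1 lower (Egr3), with Fos at 0.46 (adjusted p = 0.331) and Npas4 at 0.37 (adjusted p = 0.386). The secreted factors that neuronal activity induces had 0 of 12 called, Bdnf being at 0.29 (adjusted p = 0.404). None of the 7 retinoic acid genes was called over the 13 azoles against vehicle, Rara passing only in the single compounds named above, with Cyp26b1, a P450 that degrades retinoic acid, at -0.02 (adjusted p = 0.953). Of 7 genes of sterol efflux and the sterol receptor LXR, 1 fell, Abcg1 (-0.29, adjusted p = 0.0282), and 0 rose. Of 10 xenobiotic receptor and P450 genes, 1, Por, the reductase that feeds electrons to P450 enzymes, rose (0.19, adjusted p = 0.044), and Cyp46a1, the neuronal enzyme that hydroxylates cholesterol for export, was at -0.08 (adjusted p = 0.631). Of 13 integrated stress response genes, 2 rose, Atf4 (0.26) and Slc3a2 (0.18), and 1 fell, Vldlr (-0.13). Of 9 NRF2 targets, 1 rose, Hmox1 (0.37), and none of these lists had a call against the other chemicals. Also above vehicle in the other chemicals were Hmox1 (0.26, adjusted p = 0.0469), Slc3a2 (0.12, adjusted p = 0.004) and Atf4 (0.11, adjusted p = 0.0203, limma). Egr3, Abcg1, Por and Vldlr did not pass there.

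Imidazoles (3 compounds) against triazoles (10) had 0 genes (0%) called by limma, with 735 at an unadjusted p below 0.05 and a smallest adjusted p of 0.327. All 20 cholesterol genes had lower means in the imidazoles. The differences lay between -0.58 and -0.11 (median -0.32), and 0 of them passed. With 78 pairs of azoles compared at 10 µM and p-values adjusted over all genes and pairs, 82 calls (0.0079%) were made in 49 pairs, at most 4 in a pair, and none was a cholesterol gene. The widest difference in Cyp51 was 1.06, and its smallest adjusted p over the pairs was 0.164, for difenoconazole and triflumizole.

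Triadimefon is the ketone and triadimenol the alcohol of the same carbon skeleton: 0 genes were called, and Cyp51 differed by -0.12 (95% interval -0.65 to 0.41), Idi1 by 0.09 (-0.61 to 0.79). Propiconazole and difenoconazole share a dioxolane ring, difenoconazole carrying a chlorophenoxy group in place of a ring chlorine and a methyl in place of the propyl chain: Cyp51 was -0.32 in propiconazole relative to difenoconazole (-0.85 to 0.21) and Tm7sf2 -0.95 (-1.89 to -0.02, adjusted p = 0.776). Diniconazole, which has a double bond and a further ring chlorine, differed from paclobutrazol by -0.31 in Cyp51 (-0.84 to 0.22). Hexaconazole, an alcohol, differed from tetraconazole, a fluorinated ether, by -0.02 (-0.55 to 0.51). None of these differences passed, and the intervals, which are not adjusted for the number of pairs, do not show that the compounds act alike. The genes called were Khk between diniconazole and paclobutrazol, Gm8773 between propiconazole and difenoconazole, and Ganc between hexaconazole and tetraconazole, 1 each.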

How the data were processed

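RNA-seq libraries were aligned with TopHat to mm9 per the labels (versions not given in the sources used here); the authors then made RPKM, took log10, quantile-normalised, centred each gene and removed batch effects, so the deposited log10 values are deviations with no level, and no pseudocount or filter on level was applied here. Deposited counts per gene of 4 vehicle libraries gave CPM and RPKM, with exon lengths from the GENCODE annotation of mm9 (the authors counted over RefSeq exons); their totals were 2778615 to 7833440, and the depth of the screen libraries is unknown. Log10 values were turned into log2. Libraries of a compound were reduced to their median. Fits were made over all 13304 genes with limma 3.58.1 (R 4.3.3), no trend, Benjamini-Hochberg threshold 0.05: 13 azoles against 49 vehicle libraries, against 242 other chemicals, 3 imidazoles against 10 triazoles, and single compounds against vehicle with 95 residual degrees of freedom from replicates. A comparison of the other chemicals with vehicle was added after seeing the data. Pairs of compounds came from the single-compound fit, adjusted over all genes and 78 pairs. Alternatives were a variance trend, a filter on variation, a threshold of 0.01, recentring, single libraries, group weights, cyproconazole added and compounds left out. Scripts were tested on simulated data.

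Sterol synthesis and regulation genes were all to be named, but single values of some are not reported here; other lists gave genes called against vehicle or in 2 or more compounds, up to 6 each; otherwise the 10 largest rises and falls, the 3 largest per compound or structure pair and the 5 largest per direction between rings, passing over Rik and Gm genes. The members and lists were chosen with earlier results of these data known. The text adds genes chosen after their values were seen, and says so. Pyraclostrobin and sulforaphane count columns were not used, and 0 columns of the screen table lacked a sample.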

Additional observations from a re-analysis of the deposited data

Results flagged for a closer look

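Among 32 sets of values over the 10 triazoles, 1 held a compound far from the others: difenoconazole had 141 genes called against vehicle, and the other 9 triazoles had 1 to 30. Chance flags about 1 in 20 groups.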

How the results depend on the processing

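No paired analysis was possible because the labels give the screen's samples no replicate numbers shared between groups. Requiring an SD above 0.1 on the log10 scale (5121 genes) left 37 calls against vehicle (6 cholesterol genes), 4 against the other chemicals (3) and 180 over the single compounds; 10 of the 20 cholesterol genes passed that filter. A threshold of 0.01 left 93 (11), 7 (4), 91 and, for the pairs, 3. With cyproconazole, 11 genes were called against the other chemicals. With the spread from vehicle and azole libraries only, 2 calls were made among the pairs (82 in the main fit) and 251 over the single compounds (349 in the main fit). Leaving out 1 compound gave 160 to 359 calls against vehicle (cholesterol 11 to 18), 1 to 47 against the other chemicals (1 to 11) and 0 to 0 between rings; the lowest values came without difenoconazole, and without triticonazole 4 and without propiconazole 7 were called against the other chemicals. Leaving out difenoconazole, triticonazole and propiconazole, chosen after seeing the data, left 50 calls against vehicle (3 cholesterol genes) and 0 against the other chemicals (0), with all 20 cholesterol differences above 0 but their median at 0.22 against vehicle (0.37 with all 13 azoles) and 0.15 against the other chemicals (0.28). Without either prochloraz library, calls over single compounds were 338 and 312, and over pairs 78 and 73. Under the other alternatives these counts of calls stayed within 1.5 times their value. The causes were not tested. Mid1ip1 against the other chemicals turned to -0.00639 with single libraries, -0.0280 without those 3, and ran from -0.0146 to 0.0233 without 1 compound; Srebf2 turned to -0.00479 and Acly to -0.00971 without those 3.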
